A study of Homo sapiens with 8 samples.

Results

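The autophagy and lysosome genes described here are 69 of the 19775 genes that the arrays name with 1 symbol. They were picked by a rule on the symbol, set with earlier results of these data known. The rule takes the proton pump genes (ATP6V), the ATG genes, the LC3 and GABARAP genes, the LAMP genes, the cathepsins (CTS plus 1 letter), and SQSTM1, TFEB and MCOLN1. The ATP6V symbols take in ATP6V0E2-AS1, an antisense RNA and not a pump subunit. RNA came from A375, an established human melanoma line whose growth depends on mutant BRAF. The study set out to follow the part of BRAF, and of the stress-induced factor ATF4, in what these cells do without glutamine or under vemurafenib, an inhibitor of mutant BRAF. Each of the 8 conditions was measured on 1 Affymetrix array. Cells given an siRNA against BRAF (siBRAF) were kept in glutamine-free or in normal medium. Cells given an siRNA against ATF4 (siATF4) were kept in normal medium, and cells given a nontargeting siRNA (siCont) in glutamine-free or in normal medium. These 5 conditions lasted 18 h and form the first array set. The second set holds siATF4 and siCont cells given 10 uM vemurafenib and siCont cells given DMSO, the solvent control, each for 4 h. All cells were A375, and all carried an siRNA. With 1 line and 1 array per condition, every difference below is between single arrays without a replicate or a p-value, and cannot be separated from differences between cultures. The arrays read RNA of whole cultures, so fewer cells with a transcript and less of it in each cell cannot be told apart.

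Autophagy delivers cytoplasm to the lysosome inside a double-membraned vesicle. ATG proteins start and extend the membrane, a ubiquitin-like reaction attaches LC3 and GABARAP proteins to its lipids, and receptors such as SQSTM1 (p62) bind both cargo and LC3. The lysosome is acidified by the V-ATPase, a proton pump with a membrane sector (V0) and an ATP-hydrolysing sector (V1), is lined by LAMP proteins, and digests its content with cathepsins and other hydrolases. TFEB and its relative MITF, the melanocyte lineage factor, bind CACGTG-type sites (E-boxes) in promoters of lysosomal genes, and MCOLN1 is a lysosomal calcium channel that acts on TFEB. In amino acid shortage, ATF4 and its partner CHOP (DDIT3) switch on several ATG and LC3 genes, as worked out mainly in mouse fibroblasts.

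Values are RMA intensities on a linear scale, and a difference is that of log2(intensity + 1), so that 1 stands for 2-fold. The array medians were 14.8 to 15.5 in the first set and 36.4 to 36.9 in the second, and differences were taken within a set only. The 7 comparisons share arrays: the siCont array in normal medium serves 3, and the siCont arrays without glutamine and in vemurafenib serve 2 each. A gene was read in a comparison where at least 1 of its 2 values lay at or above the median intensity of its array. On each array 55 to 59 of the 69 genes lay at or above the median. 54 passed in all 7 comparisons, 7 in some (ATG16L2, ATP6V0D2, ATP6V0E2-AS1, CTSE, CTSG, CTSO and LAMP3) and 8 in none (ATG9B, ATP6V1B1, ATP6V1C2, ATP6V1G2, ATP6V1G3, GABARAPL3, LAMP5 and MAP1LC3B2). In normal medium ATF4 read 534 on the siATF4 array, against 1814 on the siCont array, and in vemurafenib 757 against 4548. BRAF itself was not analysed here, since no probe set is paired with it alone, so the siBRAF label was not checked on its target. Of 11 melanocyte lineage markers 8 lay at or above the array median on all 8 arrays, among them SOX10 and MITF, while MLANA and TYRP1 did so on 0. Of 10 markers of other cell types PTPRC, CD14, EPCAM, CDH1 and ALB stayed below the median on all 8 arrays, and CD3E, PECAM1, KRT5 and KRT14 lay at or above it on all 8, with KRT14 at 90.1 to 573. The log2 ratio of actin signal at the 3' over the 5' end, a sign of RNA quality, was 0.28 on the array of siCont cells without glutamine and 0.16 to 0.20 on the other 4 of its set. The same ratio for GAPDH was 0.13 on that array and 0.10 to 0.14 on the other 4.

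**Figure D1:**
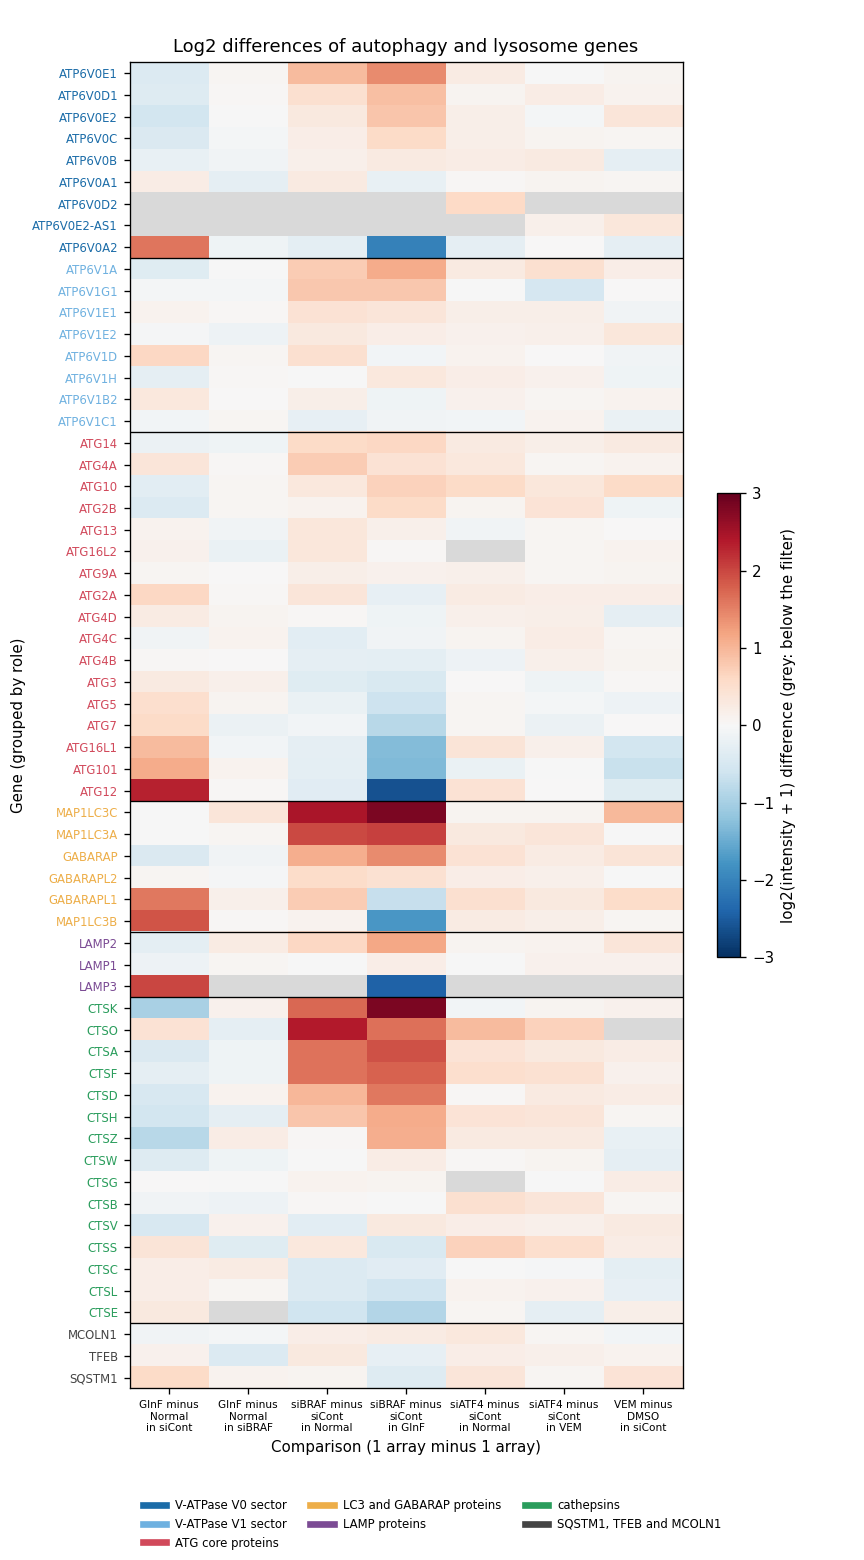
Heat map of the 61 autophagy and lysosome genes that passed the filter in at least 1 comparison. Each column is 1 comparison of 2 arrays, each row 1 gene, grouped by role, and colour is the log2(intensity + 1) difference, with grey for a comparison in which the gene did not pass. The siBRAF columns hold most of the strong colours, ATG12 and MAP1LC3B stand out in the glutamine-free comparison of siCont cells, and the siBRAF comparison of the 2 media is pale.

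The siBRAF arrays had higher levels of a set of cathepsins and of LC3 and GABARAP genes in both media. Without glutamine 13 of the 59 genes that passed were at least 2-fold higher with siBRAF than with siCont and 6 lower, where 12.8% of all 13496 genes that passed were higher and 10.8% lower, so that the share lower was close to that of all genes. In normal medium 8 of 58 were higher and 0 lower, where 7.16% of 13346 genes were higher and 7.61% lower. The 2 siBRAF comparisons share no array. All 8 genes of the normal-medium comparison passed the 2-fold line without glutamine as well: the cathepsins CTSA, CTSD, CTSF, CTSK and CTSO, and MAP1LC3A, MAP1LC3C and GABARAP. That is 8 of the 58 that passed in both, where 5.57% of 13131 genes passed that line in both, and 0 of the 58 were lower in both, against 4.3% of all genes. At 1.5-fold, 13 of the 58 were higher in both media, where 11.7% of all genes were, and the added genes were ATP6V0E1, ATP6V1A, ATP6V1G1, CTSH and LAMP2. The cathepsin CTSE was the 1 of 58 lower in both, against 9.91% of all genes. Its differences were -0.89 without glutamine and -0.60 in normal medium, and both its siBRAF values lay below the array median. Over the genes that passed, the median difference was 0.19 without glutamine and 0.24 with it, against 0.02 and -0.01 over all genes.

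**Figure D2:**
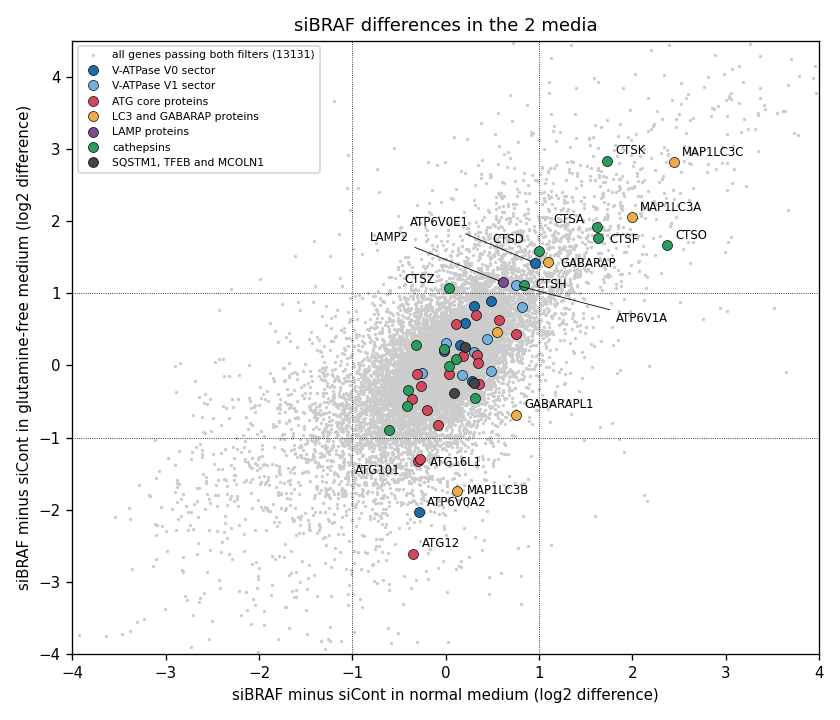
Log2 differences of siBRAF minus siCont in normal medium (x axis) and in glutamine-free medium (y axis). Coloured points are the autophagy and lysosome genes that passed in both, grey points all 13131 genes that passed in both (a few lie beyond the axes), and dotted lines mark 2-fold. The 8 genes at the upper right are higher with siBRAF in both media, while ATG12, ATP6V0A2 and MAP1LC3B lie near 0 on the x axis and below -1 on the y axis.

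The cathepsins are the lysosomal proteases. CTSA, a serine carboxypeptidase that also protects other lysosomal enzymes, read 1806 without glutamine and 1981 in normal medium in siBRAF cells, 851 in siATF4 cells in normal medium, and 476 without glutamine and 644 in normal medium in siCont cells. Both siBRAF arrays thus lay above the other 3, with differences of 1.92 without glutamine and 1.62 in normal medium. CTSF, a cysteine protease, gave the same order, with 514 and 563 in siBRAF cells (glutamine-free, then normal medium), 256 with siATF4, and 151 and 181 in siCont cells, differences of 1.76 and 1.63. CTSD, the main aspartic protease of the lysosome, read 158 and 146 with siBRAF, 74.0 with siATF4, and 51.95 and 72.5 with siCont. Its difference in normal medium, 1.003, lies on the 2-fold line, and the one without glutamine is 1.59.

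CTSK, best known as the collagen-degrading protease of osteoclasts, showed the largest siBRAF difference of the 59 genes that passed without glutamine, 2.83, and 1.73 in normal medium. It read 331 and 304 in siBRAF cells (glutamine-free, then normal medium), 85.6 with siATF4, and 45.7 and 90.8 in siCont cells, so that part of the first difference is the low siCont array without glutamine. CTSO, a cysteine protease, read 62.2 and 75.6 with siBRAF, 27.4 with siATF4, and 18.9 and 13.8 with siCont, differences of 1.66 and 2.37. Its siCont value in normal medium lay below the array median of 15.1, so CTSO passed there only through its siBRAF array.

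The other cathepsins differed less, or in 1 medium only. CTSH, an aminopeptidase, read 162 and 196 with siBRAF (glutamine-free, then normal medium), 144 with siATF4, and 73.8 and 109 with siCont, differences of 1.12 and 0.84. CTSZ, a carboxypeptidase, read 1621 and 1399.6 with siBRAF, 1641 with siATF4, and 766 and 1361 with siCont, so its difference without glutamine, 1.08, rests on the 1 low siCont array, and that in normal medium was 0.04. A second CTSZ probe set gave 0.09 without glutamine. CTSC, a dipeptidyl peptidase that activates granule proteases, read 1458 and 1223 with siBRAF, 1593 with siATF4, and 1844 and 1615 with siCont. Both its siBRAF arrays were the lowest of the 5, by -0.34 and -0.40 against siCont, which is within 1.5-fold, and its other 3 probe sets gave both signs without glutamine (-0.59 to 0.57). CTSL and CTSB, endopeptidases found in most tissues, had siBRAF differences of -0.57 and -0.01 without glutamine and -0.42 and 0.04 in normal medium. The CTSB value is that of its brightest probe set, and its other 4 gave -0.08, 0.70, 0.85 and 1.04 without glutamine, so that 3 of them were more than 1.5-fold higher with siBRAF. In all, 7 of 15 cathepsins were at least 2-fold higher without glutamine and 5 of 15 in normal medium, with 0 lower in either. Over all genes 12.8% and 7.16% were higher, and 10.8% and 7.61% lower. The median over the 15 was 0.28 and 0.11, against 0.02 and -0.01 over all genes.

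The LC3 and GABARAP genes split into 3 patterns. MAP1LC3A, MAP1LC3C and GABARAP were higher with siBRAF in both media, MAP1LC3B and GABARAPL1 were higher without glutamine in siCont cells, and GABARAPL2 stayed within 2-fold throughout. GABARAPL1 was also higher with siBRAF in normal medium, by 0.75, and by 1.06 on its second probe set. MAP1LC3A read 721 without glutamine and 691 in normal medium in siBRAF cells, 212 with siATF4, and 173 and 173 in siCont cells. The siCont arrays did not move with glutamine (difference 0.00), and the siBRAF differences were 2.05 and 1.99. All 3 of its probe sets gave at least 1.87 without glutamine and at least 1.90 in normal medium. MAP1LC3C, a less widely expressed LC3, read 115 and 89.2 with siBRAF, while its values of 16.6 with siATF4 and 15.5 and 15.6 with siCont were near the array medians. Its differences of 2.81 and 2.44 therefore set a clear signal against one close to the middle of the array. GABARAP read 3249 and 3506 with siBRAF, 2189.7 with siATF4, and 1206 and 1633 with siCont, differences of 1.43 and 1.10. GABARAPL2 read 1827 and 1862 with siBRAF, 1473 with siATF4, and 1329.7 and 1276 with siCont, a siBRAF difference within 1.5-fold in both media.

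**Figure D3:**
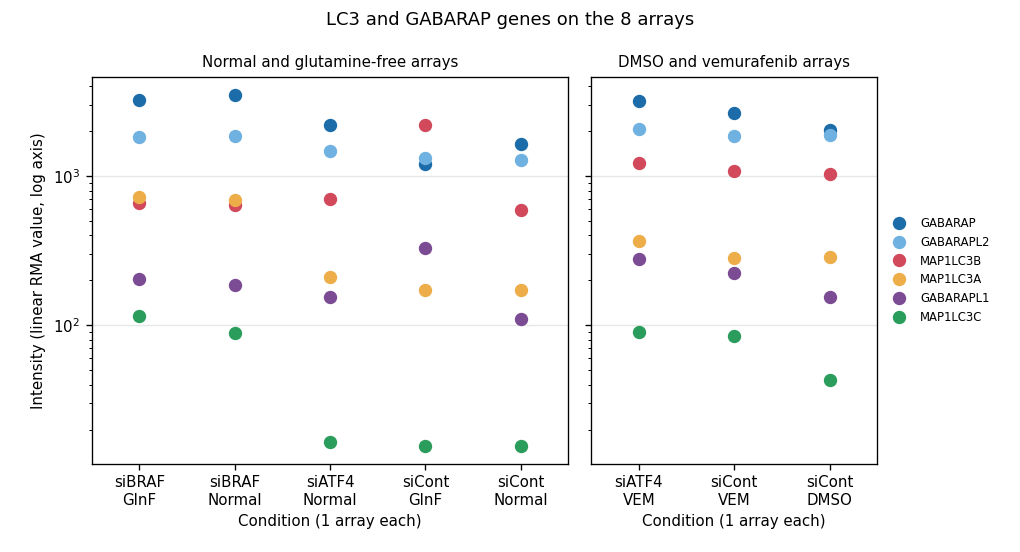
Intensities of the 6 LC3 and GABARAP genes that passed the filter, 1 point per array, on a log axis, with the first array set on the left and the second on the right. Levels are to be compared along a gene's own points within a set, not between genes or sets. MAP1LC3A, MAP1LC3C and GABARAP lie highest on the 2 siBRAF arrays, and MAP1LC3B and GABARAPL1 on the array of siCont cells without glutamine.

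Promoter sequences were available for 52 of the 69 genes, as RefSeq windows of 250 bases before to 50 after each start (GRCh38.p14). The E-box CACGTG occurred in the windows of 11 of the 52 (21.2%), where 8.77% of 27305 genes held it. These 27305, and the other motif shares over all genes, cover every gene with a window, on the arrays or not. Among genes that passed in the siBRAF comparison without glutamine, 11 of those described here held an E-box and 33 did not. Over all genes on the arrays that passed there, these counts were 1363 and 9511. The longer palindrome of the lysosomal CLEAR element, CACGTG extended by GT on its left and AC on its right, occurred in 2 of 52 (3.85%), MCOLN1 and ATP6V1G1, against 0.421% of all genes. Each such palindrome contains an E-box, and since both are palindromes, 1 strand stands for both. Among the genes higher with siBRAF in both media, 5 had a window, and CTSA, CTSD and CTSF of these held the E-box, while GABARAP and MAP1LC3C did not. Their sequences are shown from 5′ to 3′ on the gene's strand with every E-box in capitals. The CTSA window is chr20:45891085-45891384 on the plus strand, with E-boxes 42 and 25 bases before the start. The CTSD window is chr11:1763878-1764177 on the minus strand, with 1 E-box 47 bases before the start. The CTSF window is chr11:66568557-66568856 on the minus strand, with E-boxes 123 and 51 bases before the start.
CTSA: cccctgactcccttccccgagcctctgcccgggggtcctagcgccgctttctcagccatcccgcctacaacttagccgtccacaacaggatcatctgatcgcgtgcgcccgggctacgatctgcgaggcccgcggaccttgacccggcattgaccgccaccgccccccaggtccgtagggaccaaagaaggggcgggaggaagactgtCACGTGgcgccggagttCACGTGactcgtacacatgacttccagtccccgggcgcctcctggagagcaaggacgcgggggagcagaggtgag
CTSD: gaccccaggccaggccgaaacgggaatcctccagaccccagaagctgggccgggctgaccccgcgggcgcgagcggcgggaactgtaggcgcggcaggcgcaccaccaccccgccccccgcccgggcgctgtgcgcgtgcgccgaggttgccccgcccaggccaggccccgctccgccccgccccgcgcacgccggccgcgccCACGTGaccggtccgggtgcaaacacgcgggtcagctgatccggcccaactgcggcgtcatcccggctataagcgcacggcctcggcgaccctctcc
CTSF: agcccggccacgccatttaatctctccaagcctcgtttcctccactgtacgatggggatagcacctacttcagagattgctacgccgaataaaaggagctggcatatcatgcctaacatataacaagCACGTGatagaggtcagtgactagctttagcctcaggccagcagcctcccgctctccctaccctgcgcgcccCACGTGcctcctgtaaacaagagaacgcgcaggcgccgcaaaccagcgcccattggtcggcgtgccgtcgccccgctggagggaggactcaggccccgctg

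The 2 windows with the full CLEAR palindrome are shown with that palindrome in capitals. They belong to the V1 subunit gene ATP6V1G1 (chr9:114587519-114587818, plus strand, 60 bases before the start) and to MCOLN1 (chr19:7522374-7522673, plus strand, 16 bases before the start). The MCOLN1 window holds 1 further E-box, left in lower case.
ATP6V1G1: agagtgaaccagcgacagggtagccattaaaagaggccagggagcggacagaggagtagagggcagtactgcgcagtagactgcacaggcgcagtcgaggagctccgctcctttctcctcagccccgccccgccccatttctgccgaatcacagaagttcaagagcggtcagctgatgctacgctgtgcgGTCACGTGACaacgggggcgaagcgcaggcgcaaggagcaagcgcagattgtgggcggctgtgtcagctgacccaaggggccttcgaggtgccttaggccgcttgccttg
MCOLN1: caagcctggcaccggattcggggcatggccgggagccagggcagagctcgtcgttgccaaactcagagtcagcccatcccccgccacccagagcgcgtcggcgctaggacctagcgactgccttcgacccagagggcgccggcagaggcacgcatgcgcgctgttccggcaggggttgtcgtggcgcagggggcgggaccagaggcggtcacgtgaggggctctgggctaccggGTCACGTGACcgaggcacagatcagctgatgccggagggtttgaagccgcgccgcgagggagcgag

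The 11 genes with an E-box in their window had a median siBRAF difference of 0.82 without glutamine and 0.49 in normal medium, and 3 of 11 were at least 2-fold higher in each and 0 lower. The 33 other genes with a window that passed had medians of -0.11 and 0.12, with 4 higher and 5 lower without glutamine and 2 higher and 0 lower in normal medium. Over all genes the medians with an E-box were 0.02 and -0.02, with 10.6% and 5.90% at least 2-fold higher, and without one 0.02 and -0.01, with 13.2% and 7.27% higher. A match of letters is no evidence of binding. ATP6V1G1 read 1299 and 1343 in siBRAF cells (glutamine-free, then normal medium), 757 with siATF4, and 737 and 764 in siCont cells, so that both siBRAF arrays lay above the other 3, by 0.82 and 0.81 against siCont. MCOLN1 moved little: it read 104 and 108 with siBRAF, 117 with siATF4, and 86.8 and 93.3 with siCont. TFEB was dim, with 25.01 and 33.4 with siBRAF, 31.2 with siATF4, and 29.6 and 27.0 with siCont, and its siBRAF differences were -0.24 and 0.30.

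Few proton pump genes were 2-fold apart with siBRAF, at shares close to those of all genes without glutamine. Of 8 V1 genes that passed, 1 was at least 2-fold higher and 0 lower without glutamine, and of 7 V0 genes 1 was higher and 1 lower, beside 12.8% of all genes higher and 10.8% lower. In normal medium 0 of these 15 were apart, beside 7.16% and 7.61%. Of 3 LAMP genes that passed without glutamine LAMP2 was higher and LAMP3 lower, and in normal medium 0 of 2 were apart. ATP6V1A, the catalytic subunit, read 1570.2 and 1576 in siBRAF cells (glutamine-free, then normal medium), 1123 with siATF4, and 726 and 932 in siCont cells, differences of 1.11 and 0.76. ATP6V0E1, a small membrane subunit, read 2527 and 2424 with siBRAF, 1491 with siATF4, and 943 and 1251 with siCont, differences of 1.42 and 0.95. For both genes the siBRAF arrays were the 2 highest of the set. ATP6V0B, a subunit of the membrane ring, read 1297 and 1401 with siBRAF, 1461 with siATF4, and 1069.5 and 1256 with siCont, the siATF4 array being the highest. LAMP1, an abundant lysosomal membrane glycoprotein, ranged only from 1673 to 1918 over the 5 arrays. LAMP2, which also serves chaperone-mediated autophagy, read 949 and 796 with siBRAF, 552 with siATF4, and 426 and 521 with siCont. Its differences were 1.15 and 0.61, and 2 of its other probe sets gave 1.71 and 1.78 in normal medium.

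Glutamine withdrawal went with higher levels of a few of the genes in siCont cells, mostly genes of autophagosome formation. Of the 59 genes that passed, 6 were at least 2-fold higher without glutamine and 0 lower, where 5.76% of 13355 genes were higher and 7.22% lower. The 6 were ATG12, LAMP3, MAP1LC3B, ATP6V0A2, GABARAPL1 and ATG101. In siBRAF cells 0 of 57 genes were at least 2-fold apart between the same media, and of all 13138 genes 0.0457% were higher and 0.0761% lower. The median difference of the genes that passed was 0.02 in siBRAF and 0.00 in siCont cells, against 0.01 and -0.05 over all genes. Of the 12 autophagy genes tied to ATF4 or CHOP in mouse fibroblasts, 10 of which are among the 69, ATG12 and MAP1LC3B were at least 2-fold higher in siCont cells and 0 lower (median 0.48).

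ATG12, the ubiquitin-like protein whose conjugate with ATG5 directs LC3 to the membrane, read 437 without glutamine and 424 in normal medium in siBRAF cells, and 2664 and 539 in siCont cells. The difference was 0.04 in siBRAF and 2.30 in siCont cells, and all 3 of its probe sets were at least 2-fold higher in siCont cells (1.30 to 2.30). MAP1LC3B, the LC3 most used as a marker of autophagosomes, read 659 and 643 in siBRAF cells (glutamine-free, then normal medium) and 2201 and 593 in siCont cells, differences of 0.04 and 1.89. Its 2 probe sets gave 1.89 and 2.48 in siCont cells. For both genes 1 array, siCont without glutamine, stood above the other 4, since siATF4 cells in normal medium read 733 for ATG12 and 707 for MAP1LC3B. The gap between the 2 responses, siBRAF minus siCont, was -2.26 for ATG12 and -1.86 for MAP1LC3B, and with 4 single arrays it has no test.

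The windows before these 2 genes are shown because they were among the genes most apart without glutamine. Neither holds TGATGNAA, the core of the element bound by C/EBP and ATF factors such as CHOP and ATF4, which was found on either strand in 2 of 52 genes with a window (3.85%, CTSG and MAP1LC3C) and in 4.46% of all genes. The MAP1LC3B window (chr16:87392086-87392385, plus strand) holds 1 antioxidant element core, TGACNNNGC, in capitals, 46 bases before the start. That core was present in 18 of 52 genes (34.6%) and in 16.1% of all genes, on either strand, and overlapped an E-box in 1 window. The AP-1 site TGAGTCA was present in 1 of 52 (1.92%, ATG9B) and in 6.05% of all genes. The ATG12 window (chr5:115841516-115841815, minus strand) holds none of the motifs searched and is in lower case.
MAP1LC3B: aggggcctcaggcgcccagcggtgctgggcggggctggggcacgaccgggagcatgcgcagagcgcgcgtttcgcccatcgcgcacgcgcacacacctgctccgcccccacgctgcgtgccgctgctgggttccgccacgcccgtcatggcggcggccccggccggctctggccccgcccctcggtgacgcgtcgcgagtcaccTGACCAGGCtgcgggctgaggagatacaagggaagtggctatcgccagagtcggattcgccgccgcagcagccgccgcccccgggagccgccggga
ATG12: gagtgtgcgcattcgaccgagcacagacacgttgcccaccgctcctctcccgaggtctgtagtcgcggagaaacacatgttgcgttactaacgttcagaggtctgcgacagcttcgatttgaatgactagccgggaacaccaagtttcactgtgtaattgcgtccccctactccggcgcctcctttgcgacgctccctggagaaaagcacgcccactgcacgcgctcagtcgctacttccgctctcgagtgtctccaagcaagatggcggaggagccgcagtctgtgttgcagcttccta

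GABARAPL1, a close relative of GABARAP, read 206 without glutamine and 186 in normal medium in siBRAF cells, 154 with siATF4, and 332 and 109.8 in siCont cells. It was 0.15 higher on the log2 scale without glutamine in siBRAF cells and 1.59 in siCont cells, and its second probe set gave 0.32 and 1.38. ATG101, which steadies ATG13 in the ULK1 kinase complex, read 332 and 311 in siBRAF cells (glutamine-free, then normal medium), 334 with siATF4, and 829.7 and 382 in siCont cells, differences of 0.10 in siBRAF and 1.12 in siCont cells. ATG16L1, which places the ATG12 conjugate on the membrane, read 56.2 and 59.2 in siBRAF cells, 94.2 with siATF4, and 139 and 71.8 in siCont cells. Its difference in siCont cells, 0.94, was just under 2-fold.

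LAMP3, a LAMP first described in dendritic cells, was listed at 3.58 without glutamine and 3.24 in normal medium in siBRAF cells, at 4.68 with siATF4, and at 23.8 and 5.16 in siCont cells. It passed only through its 1 value above the array median, so its difference of 2.01 sets a dim signal against background. ATP6V0A2, a membrane subunit that places the pump mainly in the Golgi, read 41.4 and 45.4 in siBRAF cells (glutamine-free, then normal medium), 46.0 with siATF4, and 172 and 55.6 in siCont cells. Its difference of 1.62 depends on the probe set: another gave 1.83, and yet another -0.80.

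The rest of the conjugation machinery moved less. ATG3, the enzyme that hands LC3 to lipid, read 638 and 573 in siBRAF cells (glutamine-free, then normal medium), 745 with siATF4, and 880.0 and 733 in siCont cells, a difference of 0.26 in siCont cells. ATG7, which activates LC3 and ATG12, was at 0.57 between media in siCont cells, and its 3 passing probe sets were all above 0. ATG5 was at 0.49 and ATG10, the second enzyme of the ATG12 reaction, at -0.32, but the sign of each depends on the probe set: another ATG5 probe set gave -0.45 and another ATG10 probe set 0.16. SQSTM1 read 1364 and 1266 in siBRAF cells, 1544 with siATF4, and 1779.7 and 1192 in siCont cells, and its difference of 0.58 in siCont cells was under 2-fold. Of 15 cathepsins 0 were 2-fold apart in siCont cells, beside 5.76% of all genes higher and 7.22% lower. Below 0 lay 9 of the 15, not far from the 7180 of 13355 over all genes. CTSK (-0.97) and CTSZ (-0.83) were the lowest cathepsins. On the same arrays DDIT3 read 143 without glutamine and 184 in normal medium in siBRAF cells, against 1420 and 105 in siCont cells, and ATF4 read 1498 and 1519, against 4360 and 1814. The siCont array without glutamine also had the highest actin ratio, 0.28, while its GAPDH ratio, 0.13, lay within the range of the other arrays of its set. The part of these in the levels above was not tested.

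**Figure D4:**
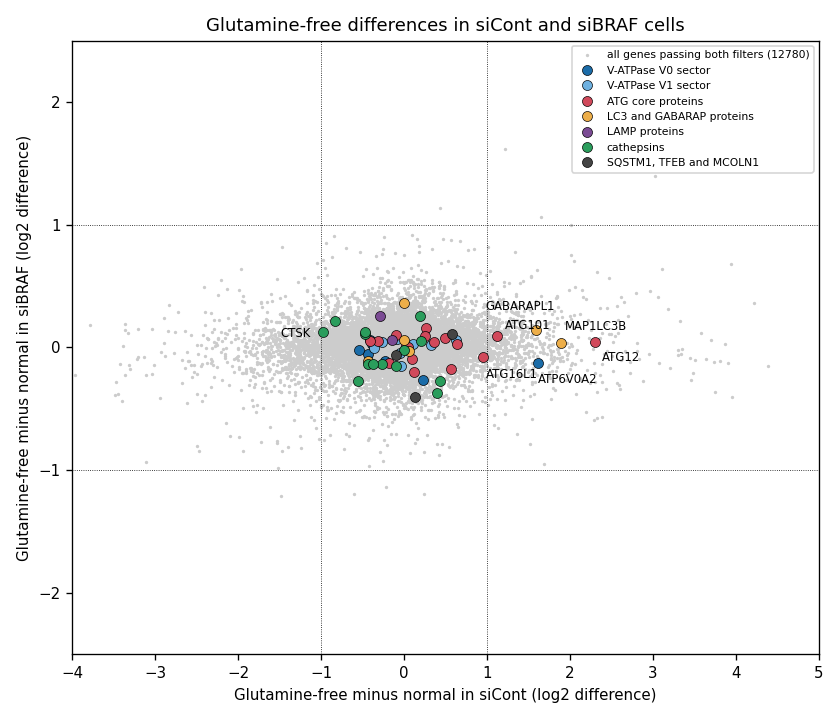
Log2 differences of glutamine-free minus normal medium in siCont cells (x axis) and in siBRAF cells (y axis). Coloured points are the autophagy and lysosome genes that passed in both comparisons, grey points all 12780 genes that passed in both (a few lie beyond the axes), and dotted lines mark 2-fold. ATG12, MAP1LC3B, ATP6V0A2, GABARAPL1 and ATG101 lie right of the 2-fold line and close to 0 on the y axis, and LAMP3 is not drawn because it did not pass in siBRAF cells.

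The siBRAF comparison without glutamine uses the same siCont array as the glutamine comparison, so the values of the 2 are given side by side and not counted together. The 6 genes at least 2-fold lower with siBRAF without glutamine have their siCont response above. Their siBRAF minus siCont differences there were -2.61 for ATG12, -2.44 for LAMP3, -2.03 for ATP6V0A2, -1.74 for MAP1LC3B, -1.32 for ATG101 and -1.29 for ATG16L1. In normal medium, on another pair of arrays, the differences were -0.35 for ATG12, -0.29 for ATP6V0A2, 0.12 for MAP1LC3B, -0.30 for ATG101 and -0.27 for ATG16L1, and LAMP3 did not pass. None of the 5 was 2-fold lower there.

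Silencing of ATF4 gave small differences. In normal medium 0 of 57 genes were at least 2-fold apart between siATF4 and siCont cells, where 0.471% of 13170 genes were higher and 0.387% lower. In vemurafenib 0 of 59 were, where 0.205% of 13173 were higher and 0.729% lower. At 1.5-fold, CTSO (0.94), CTSS (0.68) and ATP6V0D2 (0.61) were higher with siATF4 in normal medium and 0 were lower, against 2.62% and 1.86% of all genes. These counts use the brightest probe set of each gene. Less bright ones that passed there gave up to 0.90 for ATG12, 0.94 for CTSB and 1.02 for SQSTM1, while further SQSTM1 probe sets gave -0.13 and 0.16. In vemurafenib CTSO (0.69) alone was higher and 0 were lower, against 1.77% and 2.57%. The 2 siATF4 comparisons share no array, and CTSO was the 1 of 56 genes at least 1.5-fold higher in both, where 0.643% of 12589 genes were. CTSO read 48.1 with siATF4 and 29.3 with siCont in vemurafenib, beside 27.4 and 13.8 in normal medium. Both siCont values lay below their array medians of 36.9 and 15.1, so CTSO passed both times only through its siATF4 array. ATP6V0D2, a tissue-restricted pump subunit, likewise passed in normal medium only through its siATF4 array, at 15.4 against 9.78 with siCont, and CTSS, a cysteine protease best known from antigen-presenting cells, read 92.6 against 57.3, both above the median. The differences of CTSO and ATP6V0D2 are thus measured against background.

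Most of the small siATF4 differences lay above 0. They did so for 48 of 57 genes in normal medium (84.2%, against 55.3% of all genes) and for 49 of 59 in vemurafenib (83.1%, against 56.4%), with medians of 0.18 and 0.13 against 0.03 and 0.03 over all genes. Of the 12 genes tied to ATF4 or CHOP, all 12 were above 0 with siATF4 in normal medium (median 0.29) and 9 of 12 in vemurafenib (median 0.16), and 0 were 2-fold apart. ATG12 read 733 with siATF4 and 539 with siCont in normal medium, and 936 and 931 in vemurafenib. MAP1LC3B read 707 and 593 in normal medium, and 1220.5 and 1079 in vemurafenib, so neither gene was lower with siATF4 in either setting. The siRNA against ATF4 was not combined with glutamine withdrawal on the arrays analysed here, so its effect on the ATG12 and MAP1LC3B levels of glutamine-free cells was not measured.

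Vemurafenib for 4 h left these genes within 2-fold. Of 58 genes 0 were at least 2-fold apart between vemurafenib and DMSO in siCont cells, where 0.859% of 13160 genes were higher and 1.92% lower. At 1.5-fold MAP1LC3C was higher (0.96) and ATG101 lower (-0.66), where 3.14% of all genes were higher and 4.61% lower. MAP1LC3C, also higher with siBRAF, read 89.7 with siATF4 and 84.5 with siCont in vemurafenib and 42.8 in DMSO. Both vemurafenib arrays thus lay above DMSO. ATG101 read 521 and 525 in vemurafenib and 829.6 in DMSO. CTSA and CTSK, both higher with siBRAF, were within 1.5-fold of DMSO in siCont cells: CTSA read 1079.9 with siATF4 and 881 with siCont in vemurafenib and 757 in DMSO, and CTSK read 107, 102 and 92.6 on the same arrays. MAP1LC3A read 365, 284 and 287. GABARAPL1 read 278, 226 and 155, and SQSTM1 2471, 2369 and 1795, both lowest in DMSO and both within 1.5-fold between vemurafenib and DMSO in siCont cells. A second GABARAPL1 probe set gave 0.65 there, just over 1.5-fold. BRAF silencing and vemurafenib differ here in agent, time and array set. No difference between the 2 was computed, and why a gene moved with 1 of them only was not tested.

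The wider pathway was read from lists of genes outside the 69. Among 26 other lysosomal hydrolases on the arrays (of 32 listed), 12 were at least 2-fold higher with siBRAF without glutamine and 9 in normal medium, with 0 lower in either, beside 12.8% and 7.16% of all genes higher, and all 26 lay above 0 without glutamine, as 51.2% of all genes did (median 0.88, and 0.77 in normal medium). LIPA, the acid lipase of cholesteryl esters, read 817 and 864 with siBRAF (glutamine-free, then normal medium), 440.2 with siATF4, and 168 and 414 with siCont. GAA, which degrades lysosomal glycogen, read 179 and 207 with siBRAF, 88.3 with siATF4, and 47.5 and 60.6 with siCont, and PSAP, the precursor of the saposins, 3425 and 3474 with siBRAF, 1505 with siATF4, and 1298 and 1208 with siCont. For GAA and PSAP both siBRAF arrays lay above the other 3, and for LIPA the siCont array without glutamine was also the lowest. Between media in siCont cells 0 of the 26 were 2-fold higher and 3 lower, beside 5.76% and 7.22% of all genes. The 3 were LIPA (-1.29), GLA (-1.29) and GM2A (-1.12). Of 24 lysosomal membrane and sorting genes, 4 were higher and 1 lower with siBRAF without glutamine, and 3 were higher and 1 lower in normal medium, which is not far from the shares over all genes. The 2 genes lower were NPC1 without glutamine (-1.61) and LAPTM5 in normal medium (-1.40), while the membrane receptor SCARB2 (1.43 and 1.20) and the acetyltransferase HGSNAT (1.91 and 1.02) were higher in both.

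Upstream of the ATG genes, 3 of 16 initiation genes that passed were at least 2-fold higher without glutamine in siCont cells and 0 lower, beside 5.76% and 7.22% of all genes: WDR45 (1.18) and WIPI1 (1.01), which bind the lipid made by the autophagy kinase complex, and the lipid scramblase TMEM41B (1.10). With siBRAF 1 of 17 was higher in each medium, a share under that of all genes: ZFYVE1 (1.07 without glutamine and 1.21 in normal medium), which marks the membrane sites where autophagosomes form. TMEM41B was lower with siBRAF without glutamine (-1.02). Among 9 V-ATPase accessory genes 2 were higher with siBRAF without glutamine, the membrane subunit TCIRG1 (1.34) and the assembly factor ROGDI (1.002). NCOA7, which binds the pump, was lower (-1.44), beside 12.8% of all genes higher and 10.8% lower. In normal medium 0 of the 9 were apart, beside 7.16% and 7.61%, so these counts were not far from the shares over all genes. NCOA7 was also the 1 of the 9 apart without glutamine in siCont cells (1.19), a comparison that shares the siCont array. Of 19 genes of MITF, TFE3 and mTORC1 control at the lysosome that passed, 3 were higher with siBRAF in normal medium, FNIP2 (1.34), MITF (1.15) and TSC2 (1.01), with 0 lower, beside 7.16% and 7.61% of all genes. Without glutamine 2 were higher, TSC1 (1.22) and FNIP2 (1.20), and 0 lower, beside 12.8% and 10.8%, with MITF at 0.44 and TSC2 at 0.78. MITF read 567 and 567 with siBRAF (glutamine-free, then normal medium), 244 with siATF4, and 417 and 254 with siCont, and TFE3 1027 and 867 with siBRAF, 776 with siATF4, and 1292 and 745 with siCont. MITF was thus highest on the 2 siBRAF arrays, and TFE3 on the siCont array without glutamine.

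**Figure D5:**
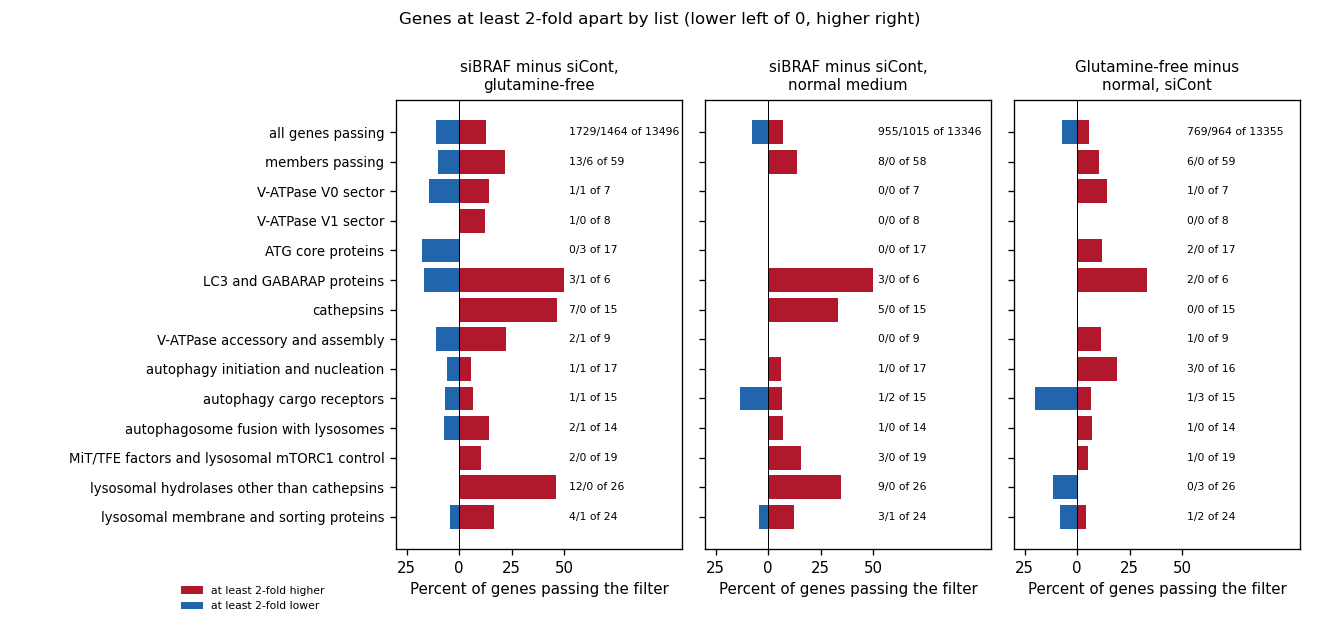
Percent of each list's genes that were at least 2-fold higher (bars to the right) or lower (bars to the left), among those that passed the filter, with the counts written as higher/lower of passing. Panels show siBRAF minus siCont without glutamine, the same in normal medium, and glutamine-free minus normal medium in siCont cells, and the top bar is that over all genes. Cathepsins, other hydrolases and the LC3 and GABARAP genes have the longest bars to the right with siBRAF, and in siCont cells without glutamine the cathepsins have none.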

How the data were processed

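RNA from 8 cultures was measured on 1 Affymetrix human expression array each. The authors deposited linear-scale intensities made with RMA, per the submitters' processing notes. RMA corrects background, normalizes quantiles and summarises probes into probe sets, and its version was not given. Of 54675 probe sets, 62 are array controls. The platform annotation gave 143 probe sets that match the symbol rule alone, for 69 genes, and 4 that pair a matching symbol with others and were left out. For each gene the probe set brightest on average (log2, 8 arrays) was used, and 35 of the 69 have several.

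Differences are of log2(intensity + 1), a fold change on that scale, which understates changes of low values. They were taken within an array set, between genes whose higher value reached the 50th percentile of its array. Genes at least 2-fold (or 1.5-fold) apart were counted beside the same count over all genes. With 1 array per condition no test was possible, and the number of arrays limits the precision. The counting was tested on simulated data.

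The genes and all lists were chosen with earlier results of these data known. Genes named with values are those at least 2-fold apart in any comparison, the 2 with the highest mean in each role group, SQSTM1, TFEB and MCOLN1, members of a count of 5 or fewer, and up to 5 per list outside the 69. CTSB, CTSL, ATG5, ATG7, ATG10 and TFE3 were chosen after their values were seen. Alternatives were the constant added (0 or 16), the filter (none or the 75th percentile), the probe set rule, quantile normalization, centring and a 1.5-fold threshold. Promoter windows and motif matches come from RefSeq GRCh38.p14. Python 3.11.15, pandas 2.3.3, numpy 2.4.6 and matplotlib 3.10.9 were used.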

Additional observations from a re-analysis of the deposited data

Results flagged for a closer look

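GABARAPL1 differed by at least 1.5-fold in opposite directions between the 2 siBRAF comparisons, at -0.69 (siBRAF minus siCont, log2) without glutamine and 0.75 in normal medium. It was the 1 of 58 genes that passed in both with such a pattern, where 1.01% of 13131 genes had it. Its second probe set gave 0.01 and 1.06, so the sign without glutamine depends on the probe set. The difference between the media was not tested.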

How the results depend on the processing

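Every value is a difference of 2 single arrays, 1 cell line was used, and depth is not defined for arrays, so dim genes such as LAMP3 and CTSO rest on signal near background. No paired analysis was possible because each condition has 1 array and no replicate numbers. Under 8 alternatives, 239 of 252 values of the 33 differences at or above 2-fold kept their direction and side of the line, 11 dropped below it or out of the filter, and 2 changed sign. The 33 values with no filter could not change, and adding 0 can only widen a difference of the same probe set, so the pooled count overstates stability. Values weakened with 16 added (3), the 75th percentile filter (4) and the mean of all probe sets (4). Without shared probe sets 2 changed sign and 19 held. With probe sets shared between transcripts left out (IDs ending in _s_at or _x_at), ATP6V0A2 read -0.80 between media in siCont cells and 0.40 with siBRAF without glutamine. Among these 33, all passing probe sets had the same sign in 11 of the 13 that have several. Leaving out shared probe sets covers fewer genes, and the share over all genes was not computed under that setting, so its counts have no background. The count of genes at least 2-fold apart without shared probe sets was 3 for glutamine withdrawal in siCont cells. With siBRAF it was 11 without glutamine and 5 in normal medium. At 1.5-fold it was 11 of 59 for glutamine withdrawal (1772 genes higher and 2237 lower of 13355 over all genes), 28 of 59 for siBRAF without glutamine (3083 and 2699 of 13496), 16 of 58 for siBRAF in normal medium (2063 and 2138 of 13346), 3 for siATF4 in normal medium, 1 for siATF4 in vemurafenib and 2 for vemurafenib. With no filter the siBRAF median without glutamine was 0.034 over the 69 genes, against 0.19 over the 59 that passed. The genes this adds had both values below the array median. All of them but GABARAPL3 (0.09) lay below 0, down to -0.61 for LAMP5, and why they did was not tested. LAMP3 between media in siCont cells (0.91), CTSD with siBRAF in normal medium (0.87) and CTSH with siBRAF without glutamine (0.98) were under 2-fold with 16 added before log2.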

Other observations

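Cargo receptors outside the 69 genes went in several directions. BNIP3, a receptor for mitochondria, read 676 without glutamine and 644 in normal medium in siBRAF cells, 1754 with siATF4, and 539 and 2229.6 in siCont cells, so that 3 arrays were low and the siATF4 and siCont arrays in normal medium were high. Its relative BNIP3L read 280.2 with siATF4 and 790.3 with siCont in vemurafenib and 709.9 in DMSO, a siATF4 difference of -1.49. It was the 1 of 15 receptors at least 2-fold apart there, beside 0.205% of all genes higher and 0.729% lower. RETREG1, a receptor for the endoplasmic reticulum, was 3.01 higher (log2) with siBRAF without glutamine and 1.63 in normal medium. CCPG1, another such receptor, was -1.80 with siBRAF without glutamine, and 1.49 without glutamine in siCont cells.

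Among 14 genes of autophagosome fusion, 10 lay above 0 with siBRAF without glutamine and all 14 in normal medium, beside 51.2% and 49.4% of all genes. Without glutamine VPS33A (1.47) and VAMP8 (1.28) were at least 2-fold higher and EPG5 (-1.12) lower, beside 12.8% and 10.8% of all genes. TECPR1 was at 0.31 there. In normal medium TECPR1 alone was higher (1.07) and 0 were lower, beside 7.16% and 7.61%. These 2-fold counts were thus not far from the shares over all genes. The tether EPG5 was -0.07 without glutamine in siBRAF cells and 1.55 in siCont cells (log2 difference from normal medium). The cathepsin inhibitor CST3 (cystatin C) read 659 and 689.7 with siBRAF (glutamine-free, then normal medium), 476 with siATF4, and 255 and 355 with siCont, so it was highest on the siBRAF arrays.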
